A study of Gossypium barbadense with 4 samples.

Results

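In flowers of tetraploid cotton (Gossypium barbadense) at 0 days post-anthesis (0 DPA), 69 probe sets of the Affymetrix cotton array gave a signal at least 2-fold lower in the semigametic line 57-4 than in Pima S-1, both in anthers and in ovules. They were selected on these ratios from 24029 probe sets, with any signal below 50 raised to 50, so that the selected ratios are described here and carry no test. The cultivar Pima S-1 forms seed by ordinary fusion of the nuclei, and 57-4 is a doubled haploid line of a spontaneous mutant of it that shows semigamy, so the lines are close relatives and each is a single genotype. Plants were raised in a greenhouse, moved to field plots and sampled without any treatment, and RNA of 3 plot replicates of 10 flowers each was pooled for each tissue and line. The 4 arrays were 57-4 anthers, Pima S-1 anthers, 57-4 ovules and Pima S-1 ovules, 1 array each, so no replicate error exists, no difference could be set against it, and precision is limited by the 4 arrays. In whole organs, fewer cells of a type and less RNA per cell cannot be told apart.

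In semigamy the sperm enters the egg but the egg and sperm nuclei do not fuse, and both divide on their own in the young seed, which can give haploid or chimeric embryos. Anthers carry the pollen that delivers the sperm, and ovules carry the embryo sac with the egg. The arrays read RNA of whole anthers and whole ovules, not of sperm or egg cells alone. Whether those cells differ between the lines in the genes with a lower signal in both organs was not tested. Several of the products found among these genes belong to families known from other plants. AP2/ERF proteins bind promoters in the responses to ethylene, drought and cold, and tubulins build the microtubules that pull chromosomes and position nuclei. Expansins loosen cell walls, and chaperones fold proteins.

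The 69 probe sets were few beside those lower in 1 tissue. In anthers 431 probe sets (1.79% of 24029) were at least 2-fold lower in 57-4, in ovules 609 (2.53%), and 0.287% were lower in both. Since the floor is 50, a probe set could meet the criterion only with a Pima S-1 signal of at least 100 in both tissues, which 9115 did, and the 69 were 0.757% of these. In the opposite direction, 23 probe sets (0.251% of the 9165 that read 100 or over in both tissues of 57-4) were at least 2-fold higher in 57-4 in both. Among the 69, the median log2 ratio (57-4 over Pima S-1) was -1.27 in anthers, with a range from -4.52 to -1.0, and -1.5 in ovules, with a range from -3.15 to -1.04. Over the 9115 bright probe sets the medians were -0.04 and -0.06. The counts depend on the scale of the arrays and on the floor: with scaling on the hybridization controls, spiked-in bacterial and phage transcripts, 488 probe sets were lower and 3 higher in both tissues, and with no floor 570 were lower and 1380 higher. The arrays were taken as the deposited labels name them, and with the ovule arrays exchanged, as the study's ovule list heads them, 23 probe sets met the criterion, none of them among the 69. In the paper's quantitative RT-PCR a high molecular weight heat shock protein was lower in 57-4 ovules, the same direction as with the deposited labels. The paper also reports a small subunit precursor of the enzyme Rubisco as lower in semigametic ovules by both methods, though only slightly in quantitative RT-PCR. Its array results give an ethylene-responsive factor and a tubulin, both selected here, and most differential ovule genes as lower in semigametic ovules. That is also the direction with the deposited labels, but those results rest on the same arrays. Few genes were measured by the other method, so the labels are not settled.

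**Figure D1:**
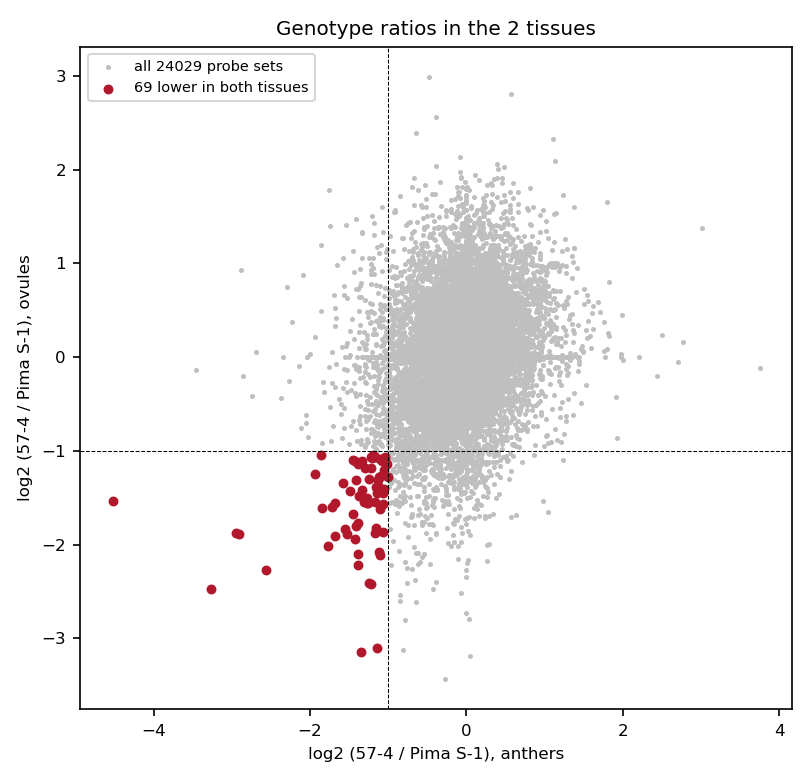
Each point is a probe set, with its log2 genotype ratio (57-4 over Pima S-1) in anthers on the x axis and in ovules on the y axis, any signal below 50 being raised to 50; dashed lines mark -1. The 69 selected probe sets (red) fill the lower left corner, and most lie close to its edges, with a single point at -4.52 in anthers.

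Most of the differences were moderate. In anthers 39 of the 69 were between 2 and 2.5-fold lower and 5 were at least 4-fold lower, and in ovules these numbers were 25 and 11. The plot of genotype ratios shows the same crowding along the threshold. The 57-4 signal was under 50 for 20 of the 69 in anthers, for 10 in ovules and for 7 in both, and there the fold is a lower bound. For 46 probe sets all 4 signals were at 50 or over. The anther signals of the 69 ran from 4.0 to 334.8 in 57-4, with a median of 76.6, and from 101.6 to 1759 in Pima S-1, with a median of 197.4. Their ovule signals ran from 17.7 to 1454.1 in 57-4, with a median of 105.2, and from 109.8 to 7799.9 in Pima S-1, with a median of 295.2. As whole sets, the signals of the lines overlapped in each tissue, and the separation is that of each probe set between its own arrays.

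The selected probe sets were dimmer than others that could have been selected. The median Pima S-1 signal of the 9115 was 427.7 in anthers and 389.3 in ovules. By the dimmer of the Pima S-1 signals, 38 of 2683 probe sets between 100 and 200 were selected (1.42%), 23 of 2606 between 200 and 400 (0.883%) and 8 of 3826 at 400 or over (0.209%).

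The array also carries probe sets for the 5', middle and 3' parts of cotton control transcripts. Their 3' to 5' ratio depends on how intact the RNA was and on how evenly it was copied from its 3' end, which cannot be told apart here. These ratios moved with the line. The 3' signal of the ss1 control was 17.4 times its 5' signal in anthers and 20.4 times in ovules of 57-4, against 8.35 and 4.18 times in the same tissues of Pima S-1. It was also higher in 57-4 in both tissues for ubq11, a ubiquitin, and for actin. The 5' part of ss1 read 194.8 in anthers and 353.4 in ovules of 57-4, against 405.4 and 1591.2 in the same tissues of Pima S-1, which gives log2 ratios of -1.06 and -2.17. Its middle part had ratios of -1.35 and -1.33, and its 3' part 0.005 and 0.12. The 5' and middle probe sets of ss1 would thus have met the criterion, as 2 of the 103 control probe sets left out, although the 3' part of the same transcript differed little between the lines. Where the probes of each of the 69 lie along their transcripts is not known here, and the part of this 3' shift in the selected ratios was not tested.

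**Figure D2:**
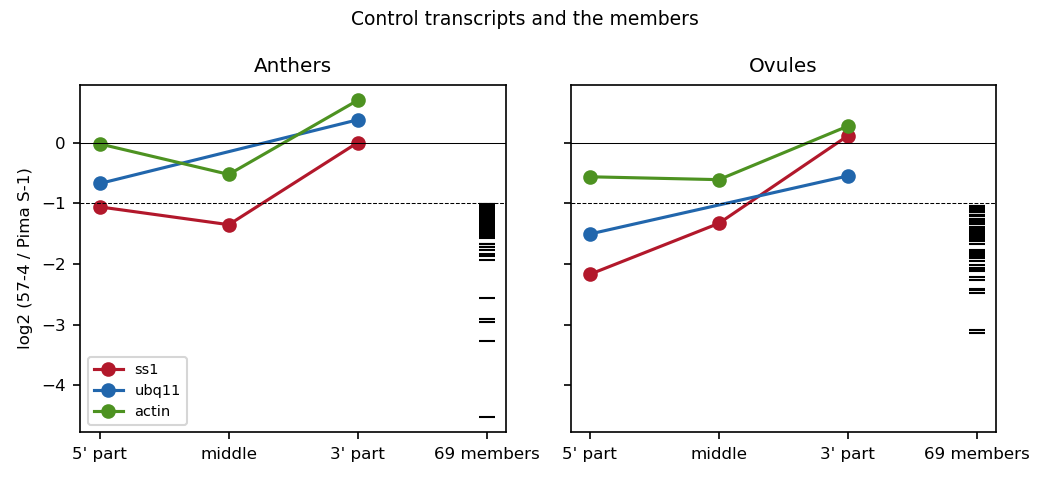
Log2 ratio of 57-4 to Pima S-1 in anthers (left) and ovules (right) for the 5', middle and 3' probe sets of the ss1 and actin controls and the 5' and 3' ones of ubq11 (coloured points, 1 array per line) and for the 69 selected probe sets (black bars). The 5' and middle parts of ss1 lie below the dashed line at -1 in both tissues, where all 69 lie by selection, and the 3' part of ss1 lies near 0.

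Product names came from the study's lists of differential genes, which describe 1439 of the 24029 probe sets. Of these, 35 (2.43%) are among the 69, and 34 of the 69 have no description. The described genes had been called on these same arrays, so counts within a family are not independent evidence of its direction. Over all 1439, 174 (12.1%) were at least 2-fold lower in 57-4 anthers and 170 (11.8%) in 57-4 ovules, with median log2 ratios of -0.26 and -0.57. At least 2-fold higher in 57-4 were 48 (3.34%) in anthers and 86 (5.98%) in ovules. In the groups below, counts lower or higher are to be read beside these shares. The share of a group that was selected, in parentheses, is to be read beside 2.43%, and each rests on few probe sets. Of the 35 described, 30 have a named product and 5 are called hypothetical. By probe set, 27 of the 35 were found on the study's anther list only, 5 on its ovule list only and 3 on both. Most were thus not found on the study's lists for both tissues.

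The AP2/ERF and DRE-binding factors held the 2 deepest anther ratios of the 69. Of 20 described, 13 were at least 2-fold lower in 57-4 anthers and 3 in ovules, and 0 and 1 at least 2-fold higher. The median log2 ratios were -1.35 and -0.38. The 3 that were lower in ovules are the 3 selected ones (15.0%). The dehydration responsive element binding protein (DT462887), which binds the promoters of drought and cold response genes, read 76.6 in anthers and 149 in ovules of 57-4, against 1759 and 431.4 in the same tissues of Pima S-1. It was brightest by far in Pima S-1 anthers, and 23.0-fold lower in 57-4 anthers but 2.90-fold lower in 57-4 ovules. The ethylene-responsive factor ERF017 (DT049130) read 9.5 and 482.5 in 57-4 and Pima S-1 anthers and 60.2 and 334.5 in the ovules, which is at least 9.65-fold and 5.56-fold lower. AP2/EREBP factor ERF-2 (DN758410) read 4.0 and 374.5 in 57-4 and Pima S-1 anthers and 20.4 and 185 in the ovules, so it was at least 7.49-fold and at least 3.70-fold lower. Both of these factors were clearly measured in Pima S-1 in both tissues, and ERF-2 was under 50 in both tissues of 57-4.

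Of the 66 other transcription regulators described, 12 were lower in anthers, 7 in ovules and 3 in both (4.55%). In anthers 5 were higher and in ovules 9, so that more were higher than lower in ovules. The ankyrin repeat BTB/POZ protein (DW489795), of a family that bridges targets to ubiquitin ligases, read 143.4 and 340.8 in 57-4 and Pima S-1 anthers and 87 and 463.3 in the ovules, 2.38-fold and 5.33-fold lower. Its UniGene title names instead ECT2, an RNA-binding protein of Arabidopsis, so its identity is uncertain. A MYB transcription factor (CO124179), of a large family of plant regulators, read 116.6 and 384.6 in anthers and 109.9 and 333.4 in ovules, 3.30-fold and 3.03-fold lower, with nearly the same levels in both organs of a line. The GAMYB-binding protein (CO122244), named for binding a gibberellin-regulated MYB factor known from cereals, read 96.5 and 270.1 in anthers and 139.2 and 374 in ovules, 2.80-fold and 2.69-fold lower. Outside these 66 by the words of its product, Gbiaa-Re (DW505592) has a UniGene title that names SHY2, an Aux/IAA repressor of auxin responses in Arabidopsis. It read 34.5 and 149.4 in anthers and 82.5 and 209.6 in ovules, at least 2.99-fold and 2.54-fold lower.

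**Figure D3:**
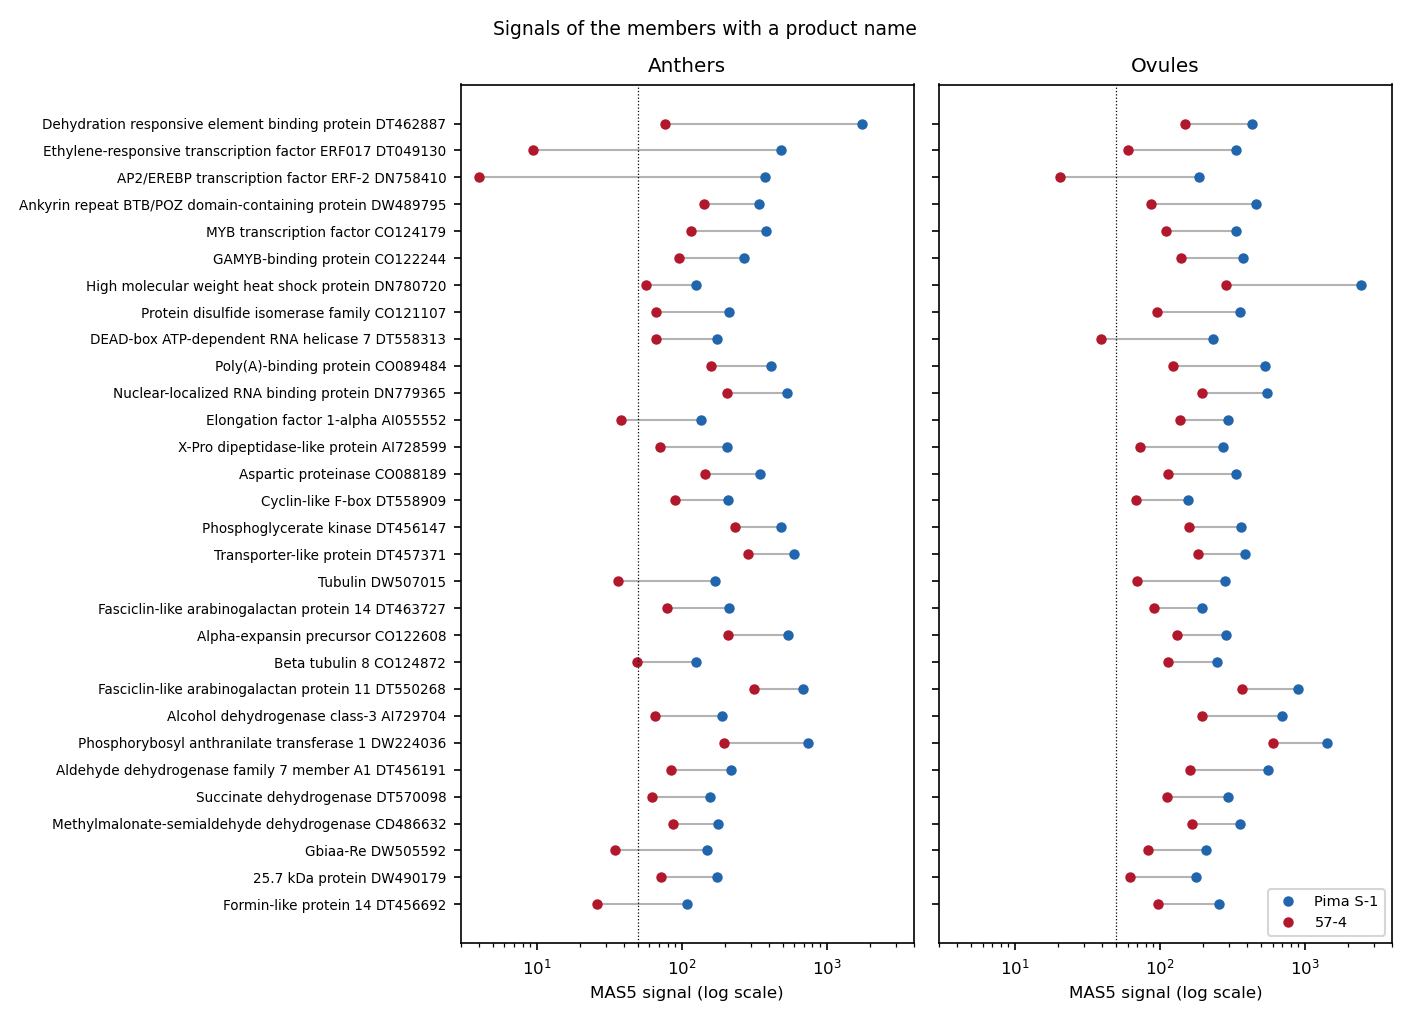
Signals of the 30 selected probe sets with a named product in anthers (left) and ovules (right) on a log scale, with 57-4 in red and Pima S-1 in blue, 1 array each; the dotted line marks 50, below which signals were set to 50 for the ratios. By selection the red point lies left of the blue one in every row, with the widest anther gaps for the 3 AP2/ERF and DRE-binding factors at the top and the widest ovule gap for the heat shock protein (286.5 and 2451.7).

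Of 31 protein folding genes described, 3 were lower in 57-4 anthers, 3 in ovules and 2 in both (6.45%). In anthers 0 were higher and in ovules 2, and the group medians were 0.20 and -0.70. The high molecular weight heat shock protein (DN780720), a chaperone of proteins that are new or damaged by heat, had the deepest ovule ratio of all named products. It read 57 in anthers and 286.5 in ovules of 57-4, against 125.7 and 2451.7 in the same tissues of Pima S-1, 2.21-fold and 8.56-fold lower. Pima S-1 ovules stood far above the other 3 arrays, and the 57-4 ovule signal was still above both anther signals. A protein disulfide isomerase (CO121107), which forms disulfide bonds in the endoplasmic reticulum, read 66.3 and 211.6 in 57-4 and Pima S-1 anthers and 95.3 and 357 in the ovules, 3.19-fold and 3.75-fold lower.

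Of 86 genes of RNA handling and translation, 11 were lower in anthers, 11 in ovules and 4 in both (4.65%). In anthers 3 were higher and in ovules 8. Over all described genes, 12.1% were lower in anthers and 11.8% in ovules. DEAD-box RNA helicase 7 (DT558313), of a family that unwinds RNA, read 66.9 and 174.7 in 57-4 and Pima S-1 anthers and 39 and 232.7 in the ovules, 2.61-fold and at least 4.65-fold lower. The poly(A)-binding protein (CO089484), which coats mRNA tails and aids translation, read 158.9 and 416.9 in anthers and 123.1 and 527.8 in ovules, 2.62-fold and 4.29-fold lower. For these 2 genes 57-4 was lower by more in ovules than in anthers. A nuclear-localized RNA binding protein (DN779365) read 206.1 and 533.4 in anthers and 195.3 and 546.9 in ovules, 2.59-fold and 2.80-fold lower. Elongation factor 1-alpha (AI055552), which brings aminoacyl-tRNA to the ribosome, read 38.5 and 136.4 in anthers and 137.8 and 295.2 in ovules, at least 2.73-fold and 2.14-fold lower. Elongation factor 1-alpha has several near-identical copies in plants, which such a probe set may not tell apart.

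Of 47 protein turnover genes, 6 were lower in anthers, 10 in ovules and 3 in both (6.38%). In anthers 1 was higher and in ovules 2. The X-Pro dipeptidase-like protein (AI728599), of a family that splits dipeptides ending in proline, read 71.5 and 206.2 in 57-4 and Pima S-1 anthers and 73.5 and 271.9 in the ovules, 2.88-fold and 3.70-fold lower. An aspartic proteinase (CO088189) read 145.5 and 347 in anthers and 114.3 and 335.3 in ovules, 2.38-fold and 2.93-fold lower. A cyclin-like F-box protein (DT558909), of the subunits that choose targets for ubiquitin ligases, read 90.4 and 209.7 in anthers and 69 and 156.8 in ovules, 2.32-fold and 2.27-fold lower. The anther and ovule signals of a line lay close together for the F-box protein and the proteinase.

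Of 55 cell wall and cytoskeleton genes described, 11 were lower in anthers, 12 in ovules and 5 in both (9.09%). In each tissue 2 were higher, and the median log2 ratios were -0.43 and -0.65. The tubulin DW507015, a microtubule subunit whose UniGene title names beta-tubulin 4, read 36.7 and 170.2 in 57-4 and Pima S-1 anthers and 69.7 and 281.8 in the ovules, at least 3.40-fold and 4.04-fold lower. The probe set described as beta tubulin 8 (CO124872) read 49.5 and 125.9 in anthers and 114.7 and 246.4 in ovules, at least 2.52-fold and 2.15-fold lower. Its UniGene title names COBRA, an Arabidopsis protein of cell wall orientation, so the sources disagree on its gene. In the paper's quantitative RT-PCR, beta tubulin 8 was lower in 57-4 anthers, but no significant difference was reported in ovules. The lower ovule signal of this probe set thus has no backing from that method. The alpha-expansin CO122608, which loosens walls, read 207.8 and 544.1 in anthers and 130.9 and 287.5 in ovules, 2.62-fold and 2.20-fold lower. Fasciclin-like arabinogalactan proteins are glycoproteins of the cell surface. Number 14 of this family (DT463727) read 79.7 and 213.4 in anthers and 91.3 and 196.4 in ovules, 2.68-fold and 2.15-fold lower. Number 11 (DT550268) was brighter, at 316.6 and 686.4 in anthers and 369.5 and 897.4 in ovules, and 2.17-fold and 2.43-fold lower. Outside this list of words, formin-like protein 14 (DT456692), of a family that nucleates actin filaments, read 26.2 and 108.8 in anthers and 97.4 and 254.5 in ovules, at least 2.18-fold and 2.61-fold lower. Its UniGene title names UNE12, an Arabidopsis DNA-binding protein.

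Of 202 metabolic enzymes, 27 were lower in anthers, 20 in ovules and 5 in both, and 9 were higher in anthers and 17 in ovules, with medians of -0.27 and -0.51. Of the enzymes 2.48% were selected, close to the 2.43% of all described genes. Phosphoribosyl anthranilate transferase 1 (DW224036), named for a step of tryptophan synthesis, read 194.9 and 745.6 in 57-4 and Pima S-1 anthers and 600 and 1427.3 in the ovules, 3.83-fold and 2.38-fold lower. On each array it read above the median of the 69. Alcohol dehydrogenase class-3 (AI729704), which oxidizes formaldehyde bound to glutathione, read 65.1 and 191.5 in anthers and 195.9 and 698.5 in ovules, 2.94-fold and 3.57-fold lower. Aldehyde dehydrogenase 7A1 (DT456191), of a family that removes reactive aldehydes, read 84.2 and 219.3 in anthers and 162.7 and 554.7 in ovules, 2.60-fold and 3.41-fold lower. In both dehydrogenases the ovules of a line read above its anthers. The mitochondrial enzymes were a flavoprotein subunit of succinate dehydrogenase (DT570098), of the citric acid cycle and the respiratory chain, and methylmalonate-semialdehyde dehydrogenase (CD486632), of valine breakdown. The succinate dehydrogenase subunit read 62.2 and 157.3 in anthers and 111.5 and 296.7 in ovules, 2.53-fold and 2.66-fold lower. Methylmalonate-semialdehyde dehydrogenase read 87.2 and 179.6 in anthers and 167.1 and 356.9 in ovules, 2.06-fold and 2.14-fold lower, close to the threshold in both tissues.

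Phosphoglycerate kinase (DT456147) is a glycolytic enzyme that the word kinase had placed among 76 signalling genes as the only one selected (1.32%). It read 233.2 and 484.9 in 57-4 and Pima S-1 anthers and 158.8 and 365.9 in the ovules, 2.08-fold and 2.30-fold lower. Its UniGene title names a metallopeptidase, so this identity is uncertain too. The transporter-like protein DT457371 was the only one selected of 35 transport genes (2.86%). It read 288.5 and 594.7 in anthers and 184.3 and 386.7 in ovules, 2.06-fold and 2.10-fold lower. The protein DW490179, named only by its mass, has a UniGene title of the YbaK/prolyl-tRNA synthetase family, and read 72.1 and 176.8 in anthers and 62.1 and 178.8 in ovules, 2.45-fold and 2.88-fold lower.

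Several of the strongest differences lay in probe sets without a named product. GhiAffx.7649.1.S1_s_at (DW478800) read 10.6 and 295.4 in 57-4 and Pima S-1 anthers and 46.5 and 240.3 in the ovules, at least 5.91-fold and at least 4.81-fold lower. Ghi.1092.3.S1_s_at (DT467839) read 188.3 and 1456.7 in anthers and 260.6 and 954.5 in ovules, 7.74-fold and 3.66-fold lower. Both are described as hypothetical proteins. GhiAffx.25696.1.S1_at, with no description, read 34.8 and 126.8 in anthers and 329.8 and 2917.4 in ovules, at least 2.54-fold and 8.85-fold lower, the deepest ovule ratio of the 69. Ghi.2233.1.S1_at read 334.8 and 780.9 in anthers and 1454.1 and 7799.9 in ovules, 2.33-fold and 5.36-fold lower. Like the heat shock protein, these last probe sets were brightest in Pima S-1 ovules and lower by more in ovules. GhiAffx.52646.1.S1_at read 52.1 and 187 in anthers and 73.2 and 222.6 in ovules, 3.59-fold and 3.04-fold lower. The other 34 without a named product had anther log2 ratios from -1.86 to -1.0 (median -1.16) and ovule ratios from -2.11 to -1.04 (median -1.43). One of them, chosen here after its values were seen, is 1 of the 4 probe sets whose identifiers name ribosomal RNA, GhirRNA.1.1.S1_at, with signals of 113.5 and 255.6 in anthers and 84.2 and 309 in ovules. The other 3 of these were not selected, with log2 ratios of -0.40 and 0.06, of 0.99 and 0.42, and of -0.17 and 1.15 in anthers and ovules.

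At the edge of the selection the ratios of probe sets inside and outside were nearly the same. Just inside were Ghi.7959.2.S1_s_at (log2 ratios of -1.0 in anthers and -1.28 in ovules), Ghi.9493.1.A1_at (DT466982, a hypothetical protein, -1.01 and -1.14) and Gra.834.1.S1_s_at (-1.02 and -1.13). Just outside were Gra.26.3.S1_s_at (-1.15 and -0.998), Ghi.7169.1.S1_at (AW187517, a hypothetical protein, -0.99 and -1.38) and a vacuolar proton-ATPase subunit-like protein (DN804335, -0.99 and -1.01). Such a subunit belongs to the pump that acidifies the vacuole.

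Of the 69, 45 were lower by more in ovules and 24 by more in anthers, and for 49 the ratios in the 2 tissues lay within 0.5 on the log2 scale. In 8 they lay more than 1 apart. The anther ratio was the lower one for DT462887, the dehydration responsive factor, by 2.99, for DT467839 by 1.08 and for ERF-2 by 1.02. The ovule ratio was the lower one for the heat shock protein (ovules minus anthers -1.96), GhiAffx.25696.1.S1_at (-1.80), Ghi.2233.1.S1_at (-1.20), the ankyrin repeat BTB/POZ protein (-1.16) and the hypothetical protein AW187601 (-1.0). Where a 57-4 signal was under 50, as for ERF-2 and for the anthers of GhiAffx.25696.1.S1_at, these gaps depend on the floor.

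The selection set no limit on the ratio of anthers to ovules within a line, but it used all 4 signals that form this ratio, so the values that follow describe the 69 as selected. In Pima S-1 most of the 69 read higher in ovules, with a median log2 ratio of anthers to ovules of -0.39 against 0.10 over the 9115 bright probe sets. Ovules were at least 2-fold above anthers for 13 of the 69 (18.8%, against 8.41% of the 9115) and anthers above ovules for 2 (2.9%, against 9.98%). Ovules read higher by any amount for 53, and 54 of the 69 differed less than 2-fold. The 2 that were higher in anthers are DT462887 (1759 in anthers and 431.4 in ovules) and ERF-2 (374.5 and 185). In 57-4 the median was -0.22 against 0.11, ovules were at least 2-fold above anthers for 12 (17.4%, against 6.82%), and anthers above ovules for 0 (against 7.93%). The largest excess of ovules in Pima S-1 was that of GhiAffx.25696.1.S1_at (126.8 in anthers and 2917.4 in ovules), then that of the heat shock protein and of Ghi.2233.1.S1_at. These 3 also read higher in ovules than in anthers of 57-4.

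**Figure D4:**
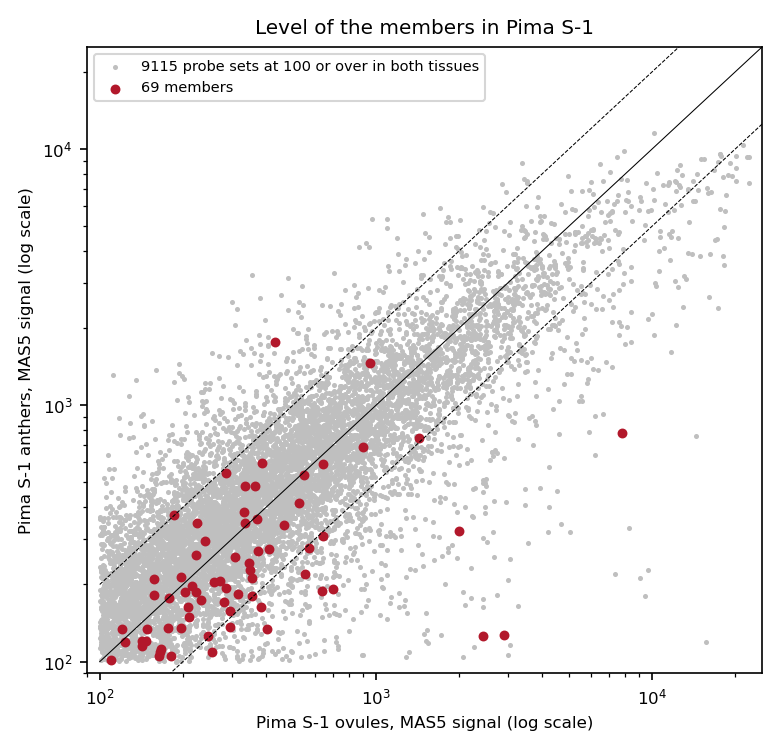
Pima S-1 signal in ovules (x axis) and anthers (y axis), both on log scales, for 9115 probe sets at 100 or over in both tissues (grey) and the 69 selected (red); the solid line marks equal signals and the dashed lines a 2-fold difference. Of the red points 53 lie below the solid line, 13 of them below the lower dashed line, and 2 lie above the upper one.

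The labelled tissues could be checked only through words in the product descriptions. Of 16 described probe sets with words for ovule, fibre, seed storage or embryogenesis, 6 were at least 2-fold higher in Pima S-1 ovules than in its anthers and 0 the other way. In 57-4 only fibre protein Fb37, the Fb25 probe set of DW506688 and a fibre quinone-oxidoreductase were at least 2-fold higher in ovules. The summed signal of the 16 was 16715.5 in anthers and 22561.0 in ovules of 57-4, against 16367.4 and 33700.6 in the same tissues of Pima S-1. The median log2 ratio of 57-4 to Pima S-1 over the 16 was -0.27 in anthers and -0.61 in ovules. The fibre protein Fb9 (CA992712), was the brightest of them on every array. Without it, an alternative chosen after its values were seen, the sums were 7301 in anthers and 9006 in ovules of 57-4, against 8857 and 13622 in Pima S-1. All 1439 described probe sets, from which these came, had medians of -0.26 and -0.57, close to those of the probe sets with these words. The part of tissue make-up in the selected ratios was not tested. The words for pollen, anther and tapetum matched 0 descriptions, so the anther arrays were not checked.

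By design, 44 of the 69 (63.8%) carry the suffix _s_at, given to probe sets that match several similar transcripts, against 48.0% of the 9115 bright probe sets. For the suffix _at, given to probe sets designed for a single transcript, these shares were 33.3% and 42.7%. Many of the products named above may thus stand for several similar transcripts rather than for a single gene. Cotton is also a tetraploid with related gene copies in its subgenomes. Which transcripts each probe set matches was not checked. In orientation, 61 (88.4%) were of the sense type S1 against 71.8%, and 8 (11.6%) of the type A1 against 28.1%. By source, 38 carry the prefix Ghi (55.1%, against 52.7%), 20 GhiAffx (29.0%, against 35.7%), 7 Gra (10.1%, against 5.98%) and 3 GraAffx (4.35%, against 4.86%).

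Other probe sets of the same transcript cluster gave a second reading of some clusters. Many of these are of the type A1 and not of the sense type, and which strand they read was not checked. The 69 came from 69 different clusters, 53 of them with no other probe set on the array. The remaining 16 had 19 further probe sets, none selected, of which 10 had a Pima S-1 signal of at least 100 in both tissues. Of these 10, 8 had a ratio below 0 in anthers and 9 in ovules, but only 2 and 1 were at least 2-fold lower. Over all 24029 probe sets, 1.79% and 2.53% were at least 2-fold lower. Unlike the 10, these include dim probe sets that could not reach 2-fold lower, so the shares are not like for like. The median log2 ratios of the 10 were -0.33 and -0.51, against -0.04 and -0.06 over the 9115 bright probe sets. The 69 were chosen for low ratios and these 10 were not, so their sizes are not like for like. A wider spread was taken within each tissue, over all clusters with several probe sets at 100 or over in both 57-4 and Pima S-1. The SD between probe sets of a cluster was 0.36 in anthers (481 clusters) and 0.51 in ovules (414 clusters). It is a spread between probes and not a replicate error. It leaves out probe sets under 100 in 57-4, as many of the 69 were in anthers.

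The second readings differed from cluster to cluster. The other alpha-expansin probe set (Gra.1563.1.S1_s_at) read 628.4 and 1336.3 in 57-4 and Pima S-1 anthers and 467.1 and 888.1 in the ovules, log2 ratios of -1.09 and -0.93, close to those of the selected one (-1.39 and -1.14). Ghi.1092.1.A1_x_at, of the cluster of DT467839, read 1321.7 and 5477.9 in anthers and 2489.1 and 4053.0 in ovules, with ratios of -2.05 and -0.70 against -2.95 and -1.87. In both clusters these readings were lower in 57-4, but each has another, dim probe set of the A1 type that was not lower in both tissues. Gra.1563.2.A1_s_at read 92.1 and 55.8 in anthers and 60.2 and 35.5 in ovules, with ratios of 0.72 and 0.27, and Ghi.1092.3.A1_s_at read 51.5 and 70.7 and then 57.3 and 27.2, with ratios of -0.46 and 0.20. Ghi.9544.1.S1_s_at, of the cluster of fasciclin-like arabinogalactan protein 14, read 4591.9 and 3306.9 in anthers and 3186.3 and 2346.4 in ovules, with ratios of 0.47 and 0.44 against -1.42 and -1.11. There the brighter probe set was higher in 57-4 and the selected one lower. The partner of elongation factor 1-alpha (GhiAffx.5047.2.A1_s_at) had ratios of -0.31 and -0.23 against -1.45 and -1.10. The partner of aldehyde dehydrogenase 7A1 (Ghi.6655.1.S1_at), described as a betaine-aldehyde dehydrogenase, had -0.25 and -0.65 against -1.38 and -1.77. Both partners were on the same side as the selected probe sets, with smaller differences, as was Ghi.7959.3.A1_s_at (-0.17 and -0.70 against -1.0 and -1.28). The dim partner of the nuclear-localized RNA binding protein (Ghi.10225.1.A1_s_at) had ratios of -0.29 and 0.86. The other dim partners of named products, of ERF017, the succinate dehydrogenase subunit and fasciclin-like arabinogalactan protein 14, were under 50 on all 4 arrays and gave no ratio.

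**Figure D5:**
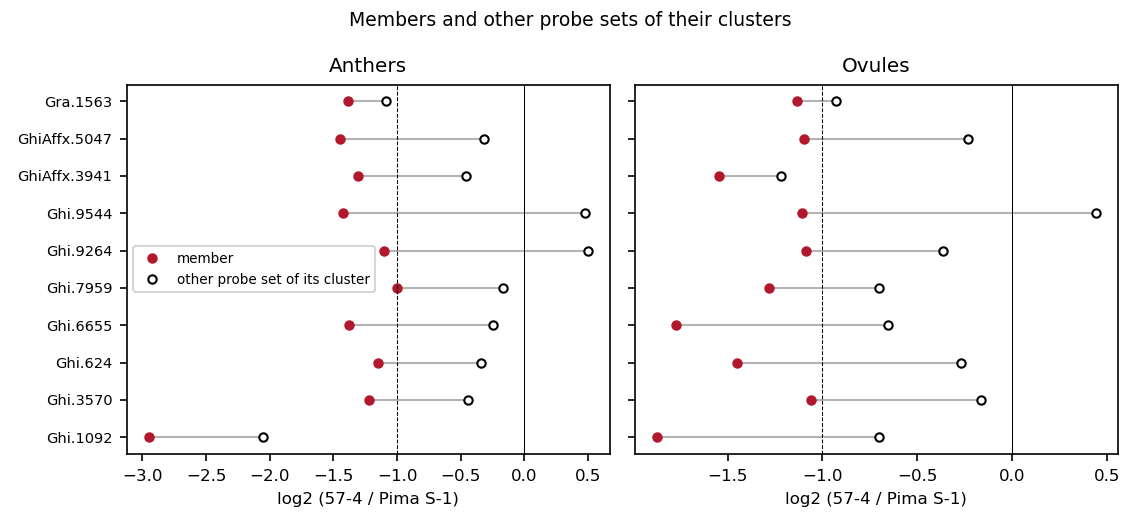
Log2 ratio of 57-4 to Pima S-1 in anthers (left) and ovules (right) for 10 selected probe sets (red) and another probe set of the same transcript cluster with Pima S-1 signals of at least 100 (open circles); each row is a cluster, the dashed line marks -1 and the solid line 0. The red points lie below -1 by selection, and the open circles span -2.05 to 0.50 in anthers, and -1.22 to 0.44 in ovules, each to the right of its red point.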

How the data were processed

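The deposited values are intensities, MAS5 signals that the authors' Affymetrix software computed for each probe set on a linear scale, and the software version is not given in the sources used here. Per the values, the arrays had been put on 1 scale: with the bottom 2% and the top 2% of signals trimmed, the mean was 250.1 on each of the 4. The 103 control probe sets were left out, signals under 50 were set to 50, and log2 ratios of 57-4 to Pima S-1 were taken within each tissue in Python 3.11.15 with pandas 2.3.3 and NumPy 2.4.6. Members have ratios of at most -1 in both tissues. With 1 array per condition no test and no SD over replicates was possible, and depth is not defined for arrays.

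The members and lists were chosen with earlier results of these data known. Named were every member with a product name, the 5 others with the lowest mean ratio, the 3 probe sets nearest to the threshold on each side, and probe sets sharing a cluster with a named member. Products came from the study's lists, whose own fold changes and calls were not used, and roles from words in them. In the ovule list the headings of the lines are exchanged relative to the deposited labels, which were used. Alternatives were other floors and scalings, single-transcript probe sets, a threshold of -1.5 and exchanged ovule columns.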

Additional observations from a re-analysis of the deposited data

How the results depend on the processing

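The number of members, 69, was 76 with ratios centred on the median, 67 with quantile normalization (58 of them among the 69), 46 with both signals at 50 or over, and 69 with 1 count per cluster. It was 570 with no floor on the signals, 31 with a floor of 100, 488 with scaling on the hybridization controls, 23 with single-transcript probe sets, 12 at a log2 threshold of -1.5, and 23 with the ovule columns exchanged, none of them among the 69. The number lower in anthers, 431, became 2774 with no floor, 190 with a floor of 100, 1912 with hybridization control scaling, 183 with single-transcript probe sets and 76 at -1.5. The number lower in ovules, 609, became 2615 with no floor, 1473 with hybridization control scaling, 272 with single-transcript probe sets and 168 at -1.5. Probe sets higher in both tissues numbered 23, and 1380 with no floor, 3 with hybridization control scaling, 6 with a floor of 100, 12 with single-transcript probe sets and 1 at 1.5. With no floor, differences between dim signals are counted, and a higher floor or threshold counts fewer by construction. For the hybridization controls, brighter on the 57-4 arrays (median log2 difference 0.47 for anthers, 0.40 for ovules), the scaling moved the median of measured probe sets by -0.46 and -0.33, and the cause of the brightness was not tested. Of the 69, 34 stayed at least 2-fold lower in anthers and 51 in ovules with a floor of 100, and 59 and 68 with quantile normalization. The median ratio of anthers to ovules of the members ran from -0.58 to -0.10 in Pima S-1 and from -0.34 to 0.00 in 57-4 under these settings. No paired analysis was possible because the RNA of the plot replicates was pooled onto 1 array per condition.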
